A study of Rattus norvegicus with 6 samples.

Results

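The genes described here are 28 rat genes of sterol and fatty acid synthesis: 18 enzymes of the route to cholesterol, 4 genes of regulation and sterol transport (Srebf1, Srebf2, Insig1 and the carrier Stard4), and 6 enzymes of fatty acid synthesis. They were chosen by name, from the known pathways and not from a measured value, among the 15284 gene symbols matched to the array. A probe was matched to 27 of the 28, none to Srebf1, and 26 could be tested. RNA of the renal cortex was measured on 1-colour Agilent arrays, 1 array for each rat. The o-nitroanisole group held 3 male Sprague-Dawley rats given this nitroaromatic compound at 400 mg/kg/day for 4 weeks. The corn oil group held 3 male Sprague-Dawley rats given corn oil for the same 4 weeks. All rats were 5 weeks old when purchased and ate the same basal diet. The labels call the arrays of a group biological replicates. The comparison asks which transcripts of the renal cortex differ under o-nitroanisole.

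Cholesterol is built from acetyl-CoA through mevalonate, isoprenoid units, squalene and lanosterol, and fatty acids are built from the same acetyl-CoA through malonyl-CoA. The transcription factors SREBP-1 and SREBP-2, encoded by Srebf1 and Srebf2, control most of these enzymes. When membrane sterol is low, the escort protein SCAP carries SREBP to the Golgi for cleavage, and when sterol is ample, INSIG proteins hold the complex in the endoplasmic reticulum. SREBP binds promoters together with NF-Y, a factor that recognises the letters CCAAT. Sterol genes are therefore known to move as a group, while SREBP-1 and the carbohydrate-sensing factor ChREBP act more on fatty acid synthesis.

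The promoters below are RefSeq sequences of build GRCr8, each the 250 bases before the annotated start of the gene, written 5′ to 3′ in the direction of the gene. They are shown because these genes kept a like order among the rats, described further on, and they were picked after the values were seen. Mvd and Fdps had the same order as Insig1 and are not shown. Capitals mark CCAAT or its reverse ATTGG, and the letters CACGTG, called an E-box. The windows are chr2:53382054-53382303 on the plus strand for Hmgcs1, chr16:29746863-29747112 on the plus strand for Msmo1, chr4:8057770-8058019 on the minus strand for Insig1 and chr4:30991443-30991692 on the plus strand for Cyp51.
Hmgcs1: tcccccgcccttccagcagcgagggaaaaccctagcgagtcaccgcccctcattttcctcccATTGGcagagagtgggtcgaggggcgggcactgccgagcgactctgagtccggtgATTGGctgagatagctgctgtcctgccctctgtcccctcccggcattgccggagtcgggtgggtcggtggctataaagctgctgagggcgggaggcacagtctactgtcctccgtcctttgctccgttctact
Msmo1: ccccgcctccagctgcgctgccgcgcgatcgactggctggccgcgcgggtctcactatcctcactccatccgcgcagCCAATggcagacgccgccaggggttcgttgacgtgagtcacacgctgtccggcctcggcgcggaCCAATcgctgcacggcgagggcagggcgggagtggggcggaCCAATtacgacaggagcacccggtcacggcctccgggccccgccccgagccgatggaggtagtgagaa
Insig1: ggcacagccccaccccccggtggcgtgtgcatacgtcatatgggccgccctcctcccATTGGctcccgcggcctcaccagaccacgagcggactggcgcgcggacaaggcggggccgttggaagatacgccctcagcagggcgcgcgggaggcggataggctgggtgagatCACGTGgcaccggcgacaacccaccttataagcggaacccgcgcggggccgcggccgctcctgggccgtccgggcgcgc
Cyp51: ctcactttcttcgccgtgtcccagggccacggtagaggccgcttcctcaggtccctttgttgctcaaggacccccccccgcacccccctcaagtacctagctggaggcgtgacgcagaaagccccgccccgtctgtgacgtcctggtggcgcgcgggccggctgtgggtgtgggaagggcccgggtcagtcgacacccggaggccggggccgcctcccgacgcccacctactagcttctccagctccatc
Hmgcs1 held ATTGG 188 and 133 bases before the start, Msmo1 held CCAAT 173, 109 and 68 bases before it, and Insig1 held ATTGG 193 bases and CACGTG 79 bases before it. None of these letters is in the Cyp51 window. Over the genes described here, 21 had a promoter in the table, and 17 of the 21 held CCAAT on either strand, against 34% of all 33469 promoters. CACGTG was in 2 of the 21, Sc5d and Insig1, against 5.59% of all promoters. The sterol regulatory element as searched, TCACNCCAC on either strand, was in 0 of the 21 and in 0.974% of all promoters. These are matches of letters in a 250-base window and say nothing of binding.

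The arrays were alike in quality, with 66.37% to 71.47% of probes well above background and Pearson correlations of 0.986 to 0.992 between groups over all features. Levels are given as relative signal, the processed signal divided by that array's 75th percentile, so that 1 is the 75th percentile of the array. Differences are those of mean log2 relative signal, o-nitroanisole rats minus corn oil rats, and carry limma's moderated standard error (SE). The o-nitroanisole arrays shared slide 2 and scan 2, whereas the corn oil arrays shared slide 1 and scan 1, so treatment cannot be told apart from slide and scan. The corn oil replicates are numbered as the scanner files are, and the deposited value table gives the same 3 arrays in another order, so the number of a corn oil rat is not settled. Markers of the proximal tubule, the main tissue of the cortex, were all detected, 10 of 10, with a summed relative signal of 1592 to 1652 in o-nitroanisole and 1556 to 1667 in corn oil. In these whole-cortex samples, fewer cells of a type and less RNA per cell cannot be told apart.

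No gene of the 26 passed an adjusted p of 0.05 in limma (Benjamini-Hochberg over 32428 features), where 0% of all features passed. The lowest adjusted p was 0.178 among these genes, for Mvd, and 0.0711 over all features. With trend and robust moderation 1.61% of all features passed, and with normexp background correction 0.355%, and again 0 of the 26 genes did. At an unadjusted limma p under 0.05 there were 4 genes, Tm7sf2 and Acacb higher and Mvd and Fasn lower, or 15.4% of the 26, against 18.9% of all features. By direction the background was 11.8% of features higher and 7.12% lower. The o-nitroanisole and corn oil rats did not overlap for 5 genes, the same 4 and Ebp, or 19.2%, against 27.2% of all features (17.6% higher and 9.56% lower). With all arrays both shares lie below the background, and single arrays turn this order. The unadjusted count was 0 without o-nitroanisole replicate 2 (14.6% of all features), 7 when corn oil replicate 2 was left out (26.9%, above the 17.9% of all features) and 1 when corn oil replicate 3 was left out (14% of all features). The groups did not overlap for 12 genes if corn oil replicate 1 was left out (46.2%, above the 35.8% of all features), and for 11 if corn oil replicate 2 was (42.3%, above 39.3%). For 8 genes they did not overlap if o-nitroanisole replicate 2 or replicate 3 was left out (30.8%, below the 36.5% and 37.1% of all features).

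**Figure D1:**
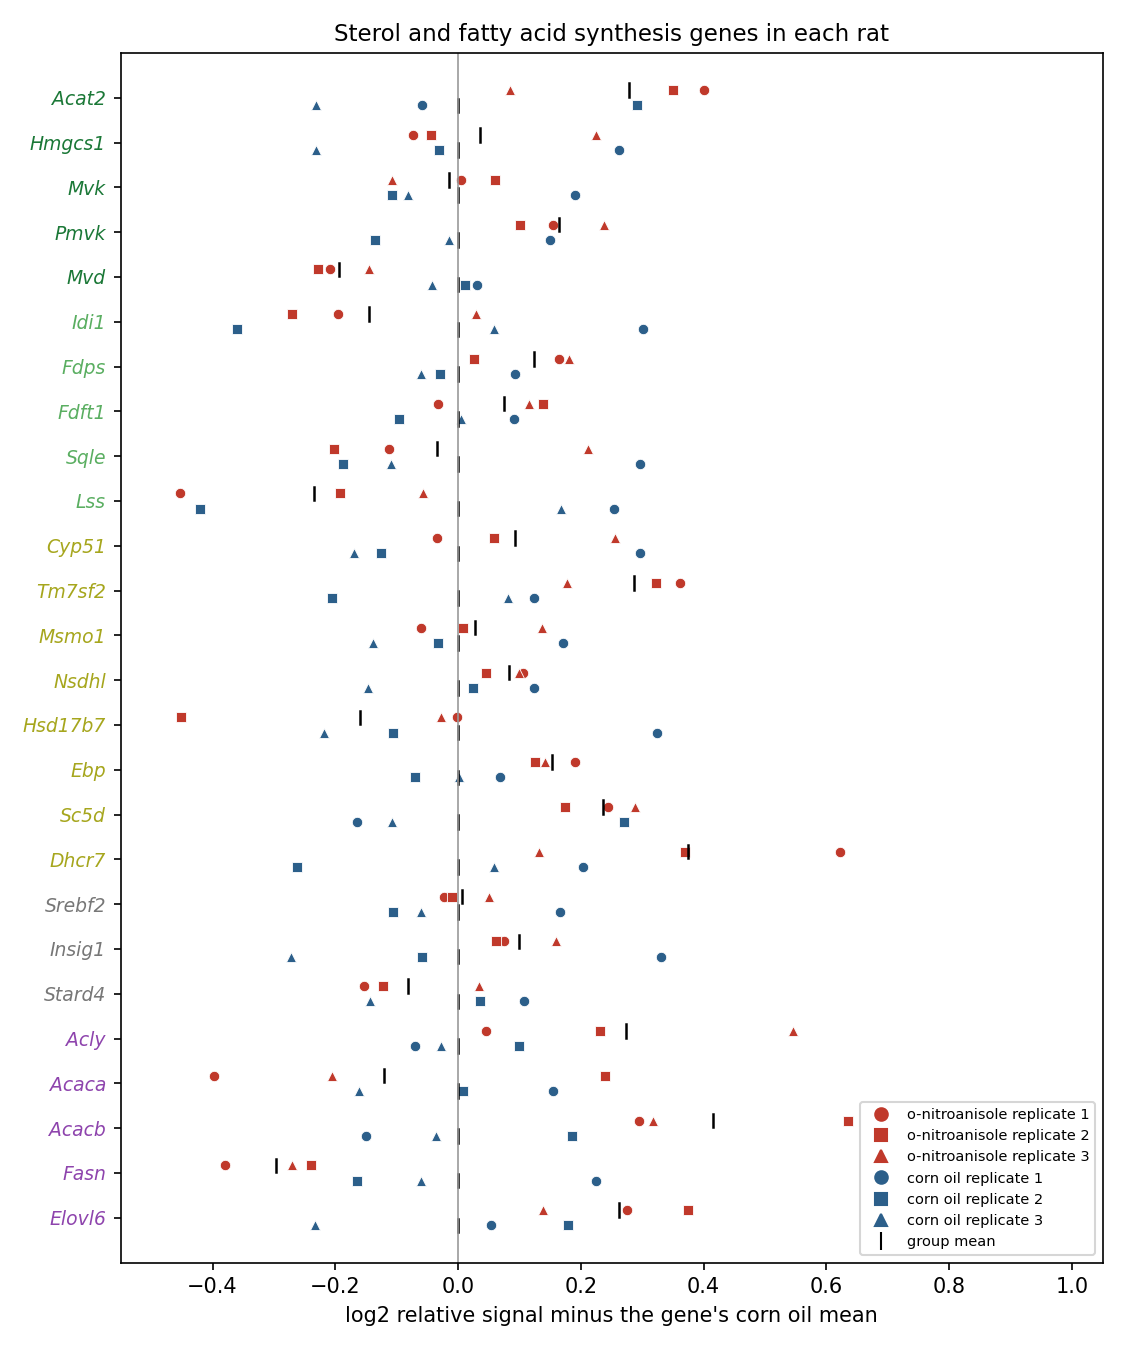
Log2 relative signal of each tested gene in each rat, minus that gene's corn oil mean (x axis), with o-nitroanisole rats in red above corn oil rats in blue and black ticks at the group means. Gene names are coloured by step, from mevalonate at the top to fatty acid synthesis at the bottom. For most genes the 2 colours share their range, while the groups stand apart for Mvd, Tm7sf2, Ebp, Acacb and Fasn.

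Among the mevalonate enzymes, Acat2, which joins acetyl-CoA units in the cytosol, had relative signals of 12.1, 11.7 and 9.71 in o-nitroanisole rats, against 8.79, 11.2 and 7.8 in corn oil rats. Corn oil replicate 2 lay among the o-nitroanisole rats, and the difference was 0.28 ± 0.16 (SE, n = 3 each, adjusted p = 0.409). Hmgcs1, the synthase that makes HMG-CoA, had 7.72, 7.88 and 9.49 in o-nitroanisole, against 9.74, 7.95 and 6.92 in corn oil. Its highest and lowest rats were both corn oil rats, and the difference was 0.04 ± 0.15 (adjusted p = 0.918). Its further probes gave -0.23 and -0.09, so even the sign of this small value depends on the probe. Mvk, mevalonate kinase, differed by -0.01 ± 0.10, with a 95% interval of -0.27 to 0.24. Pmvk, phosphomevalonate kinase, differed by 0.16 ± 0.09 with the groups overlapping.

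Mvd, which decarboxylates mevalonate diphosphate to the first isoprenoid unit, had 1.35, 1.33 and 1.41 in o-nitroanisole, against 1.59, 1.57 and 1.51 in corn oil. Every o-nitroanisole rat lay below every corn oil rat, and the rats of a group lay close together. The difference was -0.19 ± 0.06, a fold of 0.874 (95% interval 0.791 to 0.966, adjusted p = 0.178). It was measured by 1 probe, and the value stayed between -0.24 and -0.18 over all alternatives.

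The next 5 enzymes make and join isoprenoids to squalene and close the ring to lanosterol, and at the brightest probe of each the groups overlapped. Idi1, the isopentenyl diphosphate isomerase, had 2.31, 2.19 and 2.69 in o-nitroanisole, against 3.25, 2.06 and 2.75 in corn oil. The corn oil rats alone spanned the whole range of both groups, and the difference was -0.15 ± 0.18. Fdps, which makes farnesyl diphosphate, differed by 0.12 ± 0.08 with further probes at 0.16 and 0.17. The groups did not overlap at the probe with 0.16 and overlapped at the probe with 0.17. Fdft1, squalene synthase, differed by 0.07 ± 0.08 at its brightest probe. Its second probe gave 0.34, with 1.31, 1.15 and 1.11 in o-nitroanisole, against 1.1, 0.894 and 0.834 in corn oil, and there the groups did not overlap. Sqle, squalene epoxidase and a rate-limiting step, had 3.12, 2.93 and 3.91 in o-nitroanisole, against 4.15, 2.96 and 3.13 in corn oil. One rat stood above the others in each group, and the difference was -0.03 ± 0.17 (95% interval -0.46 to 0.39), with -0.21 from its second probe. Lss, lanosterol synthase, had 1.37, 1.64 and 1.81 in o-nitroanisole, against 2.24, 1.4 and 2.11 in corn oil. This was the widest spread among the sterol enzymes in corn oil, with an SD of 0.37 log2, and the difference was -0.23 ± 0.21 (adjusted p = 0.582). Its second probe gave -0.46, with the groups overlapping there too.

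Of the 8 enzymes that turn lanosterol into cholesterol, 7 had a difference above 0 and 1, Hsd17b7, below it, with a median of 0.12, against 0.028 over all features. Tm7sf2, a sterol C14 reductase, had 6.52, 6.34 and 5.73 in o-nitroanisole, against 5.53, 4.4 and 5.37 in corn oil. The groups did not overlap, although o-nitroanisole replicate 3 and corn oil replicate 1 were near each other. The difference was 0.29 ± 0.11, a fold of 1.22 (adjusted p = 0.248), and its second probe gave 0.33. Ebp, the sterol isomerase also known as emopamil-binding protein, had 16.1, 15.4 and 15.5 in o-nitroanisole, against 14.8, 13.4 and 14.1 in corn oil. All o-nitroanisole rats lay above all corn oil rats by a small margin, with a difference of 0.15 ± 0.06 (adjusted p = 0.275).

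Dhcr7, the 7-dehydrocholesterol reductase of the last step, had 5.34, 4.48 and 3.8 in o-nitroanisole, against 3.99, 2.89 and 3.61 in corn oil. O-nitroanisole replicate 3 lay within the corn oil range, and the difference of 0.37 ± 0.17, the largest among the sterol enzymes, had an adjusted p of 0.314. Sc5d, the desaturase that makes 7-dehydrocholesterol, had 2.75, 2.62 and 2.83 in o-nitroanisole, against 2.07, 2.8 and 2.16 in corn oil. The o-nitroanisole rats were tightly grouped and corn oil replicate 2 lay among them, with a difference of 0.24 ± 0.13. Cyp51, the lanosterol demethylase, had 0.872, 0.931 and 1.07 in o-nitroanisole, against 1.1, 0.818 and 0.794 in corn oil. Its difference was 0.09 ± 0.15, and its second probe gave -0.07. Msmo1, the methylsterol monooxygenase, had 18.9, 19.9 and 21.7 in o-nitroanisole, against 22.2, 19.3 and 18 in corn oil, a difference of 0.03 ± 0.10. Nsdhl and Hsd17b7, which act in removal of the methyl groups at C4, differed by 0.08 ± 0.08 and -0.16 ± 0.19.

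Srebf2, which encodes the main activator of sterol genes, had 3.07, 3.1 and 3.24 in o-nitroanisole, against 3.5, 2.9 and 3 in corn oil. The o-nitroanisole rats lay inside the corn oil range, and the difference was 0.01 ± 0.09 (95% interval -0.21 to 0.23). Of its 2 further probes, one gave 0.01 and a dim one, well above background on 3 o-nitroanisole arrays and 1 corn oil array, gave 1.02. Insig1, an SREBP target whose protein restrains SREBP, had 6.71, 6.65 and 7.11 in o-nitroanisole, against 8.01, 6.12 and 5.27 in corn oil. The o-nitroanisole rats lay close together inside a wide corn oil range, with an SD of 0.05 log2 against 0.31 and a difference of 0.10 ± 0.16. Stard4, a cytosolic sterol carrier, differed by -0.08 ± 0.09.

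**Figure D2:**
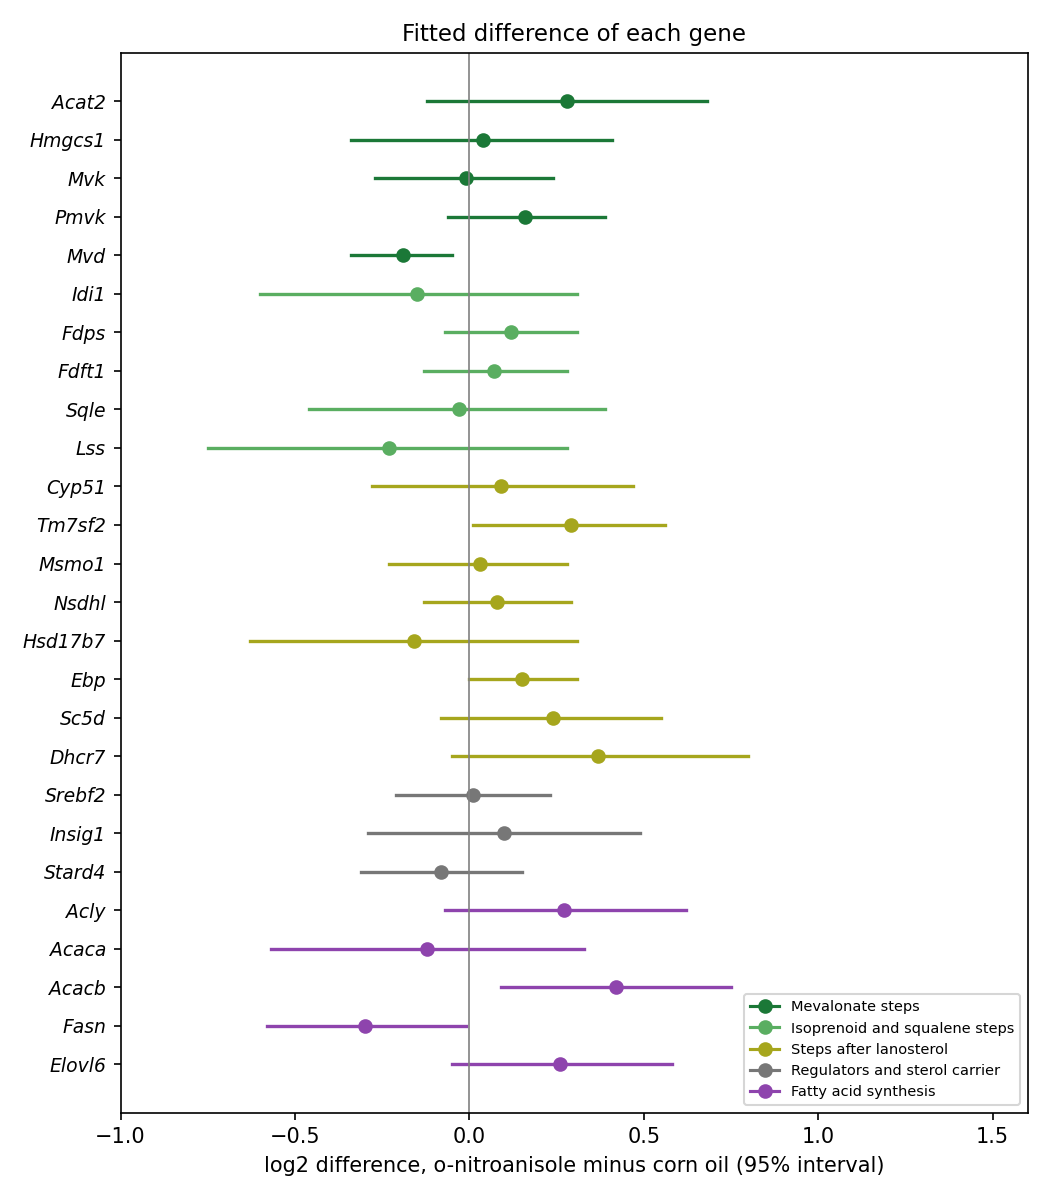
Fitted log2 difference of each tested gene, o-nitroanisole minus corn oil (x axis), as a point with its 95% interval from limma, coloured by step of the pathway. The interval leaves out 0 for Mvd, Tm7sf2, Acacb and Fasn, none of which passed the adjusted threshold.

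The fatty acid enzymes pointed both ways. Acly, ATP citrate lyase, supplies cytosolic acetyl-CoA and had 13.4, 15.2 and 18.9 in o-nitroanisole, against 12.3, 13.9 and 12.7 in corn oil. O-nitroanisole replicates 2 and 3 lay above all corn oil rats and replicate 1 did not, with a difference of 0.27 ± 0.14 (adjusted p = 0.355). Its second probe gave 0.06. Fasn, the fatty acid synthase, had 1.95, 2.15 and 2.1 in o-nitroanisole, against 2.97, 2.26 and 2.43 in corn oil. All o-nitroanisole rats lay below all corn oil rats, a difference of -0.30 ± 0.12 or a fold of 0.814 (95% interval 0.668 to 0.992, adjusted p = 0.252), and its second probe gave -0.32.

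The carboxylases that make malonyl-CoA were both dim, though well above background on all 6 arrays. Acacb, the form at the mitochondrial surface that restrains fatty acid oxidation, had 0.0806, 0.102 and 0.0818 in o-nitroanisole, against 0.0592, 0.0747 and 0.0641 in corn oil. The groups did not overlap at its brightest probe, and the difference was 0.42 ± 0.13, a fold of 1.33 (adjusted p = 0.195). Its second probe gave 0.23, and there the groups overlapped. Acaca, the cytosolic form that feeds synthesis, had 0.0652, 0.101 and 0.0744 in o-nitroanisole, against 0.0956, 0.0863 and 0.0767 in corn oil. Its groups overlapped, with a difference of -0.12 ± 0.18 and 0.08 from its second probe. Elovl6, which lengthens C16 fatty acids, had 3.22, 3.44 and 2.93 in o-nitroanisole, against 2.76, 3.01 and 2.26 in corn oil. Corn oil replicate 2 passed o-nitroanisole replicate 3, and the difference was 0.26 ± 0.13 (adjusted p = 0.335). Its second probe gave 0.31, with 0.228, 0.287 and 0.221 in o-nitroanisole, against 0.213, 0.218 and 0.162 in corn oil. There the groups did not overlap, by a small margin. Scd, a stearoyl-CoA desaturase, was too dim to test: 1 of its 2 probes was well above background on 1 o-nitroanisole array and on no corn oil array, and the other on none.

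**Figure D3:**
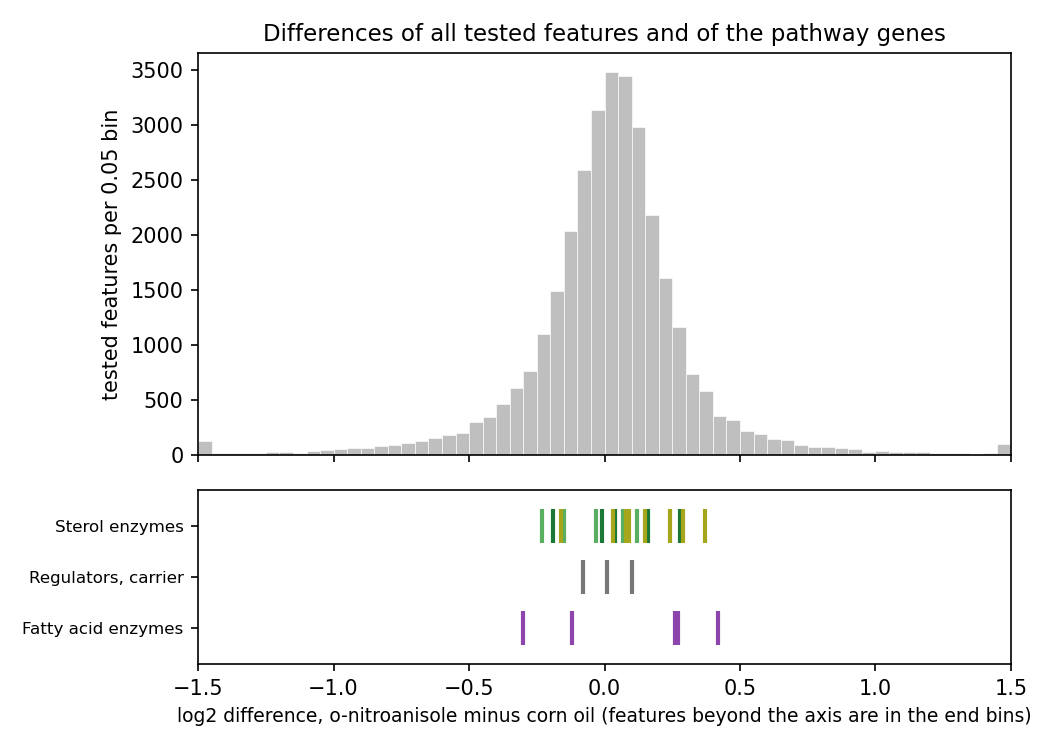
Histogram of the log2 difference, o-nitroanisole minus corn oil, of all 32428 tested features (top, number of features per bin of 0.05) above ticks for the genes described here (bottom). The sterol enzymes lie between -0.23 and 0.37 and the fatty acid enzymes between -0.30 and 0.42, within the bulk of all features.

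As a group, the 18 sterol enzymes had a median log2 difference of 0.08, with 12 above 0 and 6 below, and the 5 tested fatty acid enzymes a median of 0.26, with 3 above and 2 below. The median over all features was 0.028. Leaving out 1 array at a time moved the sterol median between 0.01 and 0.15 and the fatty acid median between 0.14 and 0.32. To set the pathways side by side in each rat, each gene was taken as a log2 deviation from its mean over the 6 rats, and the fatty acid median was subtracted from the sterol median. This gave 0.13, -0.23 and 0.06 in o-nitroanisole rats, against 0.18, -0.10 and 0.06 in corn oil rats. One rat of each group was below 0, numbered 2 in both, but the corn oil numbers are not settled, so the shared number carries no meaning. The groups overlapped, with means of -0.01 ± 0.19 and 0.05 ± 0.14 (SD, n = 3 each).

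The sterol enzymes varied more among the corn oil rats than between the groups. For 16 of the 18, or 88.9%, the range of the corn oil rats exceeded the difference between group means, against 68.4% of all features. The median SD of the sterol enzymes was 0.10 log2 in o-nitroanisole and 0.21 in corn oil, against 0.12 in each group over all features. Corn oil replicate 1 was the highest corn oil rat for 16 of the 18 enzymes, Acat2 and Sc5d being the exceptions, and for Srebf2, Insig1 and Stard4, against 33.8% of all features. Its median deviation over all features was -0.01, but each array was scaled to its own level. That value therefore cannot show whether this rat was generally high. Corn oil replicate 1 was the highest corn oil rat for only 2 of the 5 fatty acid enzymes, Acaca and Fasn. The count for the sterol enzymes was 16 with quantile normalization, and 15 with normexp correction, with median scaling and with the mean of all probes. With the mean of all probes this rat was highest for 1 of the 3 genes Srebf2, Insig1 and Stard4.

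In o-nitroanisole the highest rat was replicate 3 for 10 of the 18 sterol enzymes and for Srebf2, Insig1 and Stard4, against 36.4% of all features, and replicate 1 for 6. With median scaling replicate 3 was highest for 7 of the 18 and for 2 of those 3 genes, and with the mean of all probes for 11 of the 18 and for 1 of those 3. Hmgcs1, Cyp51, Msmo1 and Stard4 shared one order of the rats in both groups, replicate 3 over 2 over 1 in o-nitroanisole and replicate 1 over 2 over 3 in corn oil, which 2.77% of all features had. Insig1 had that order in corn oil, as did Mvd, Fdps, Nsdhl, Hsd17b7 and Acaca. In o-nitroanisole, replicates 1 and 2 were reversed for Insig1, Mvd and Fdps, and were nearly equal for Insig1. These 3 genes shared their order in both groups, which 2.65% of all features had. These orders were noticed in the values and carry no test, and the genes share their arrays.

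**Figure D4:**
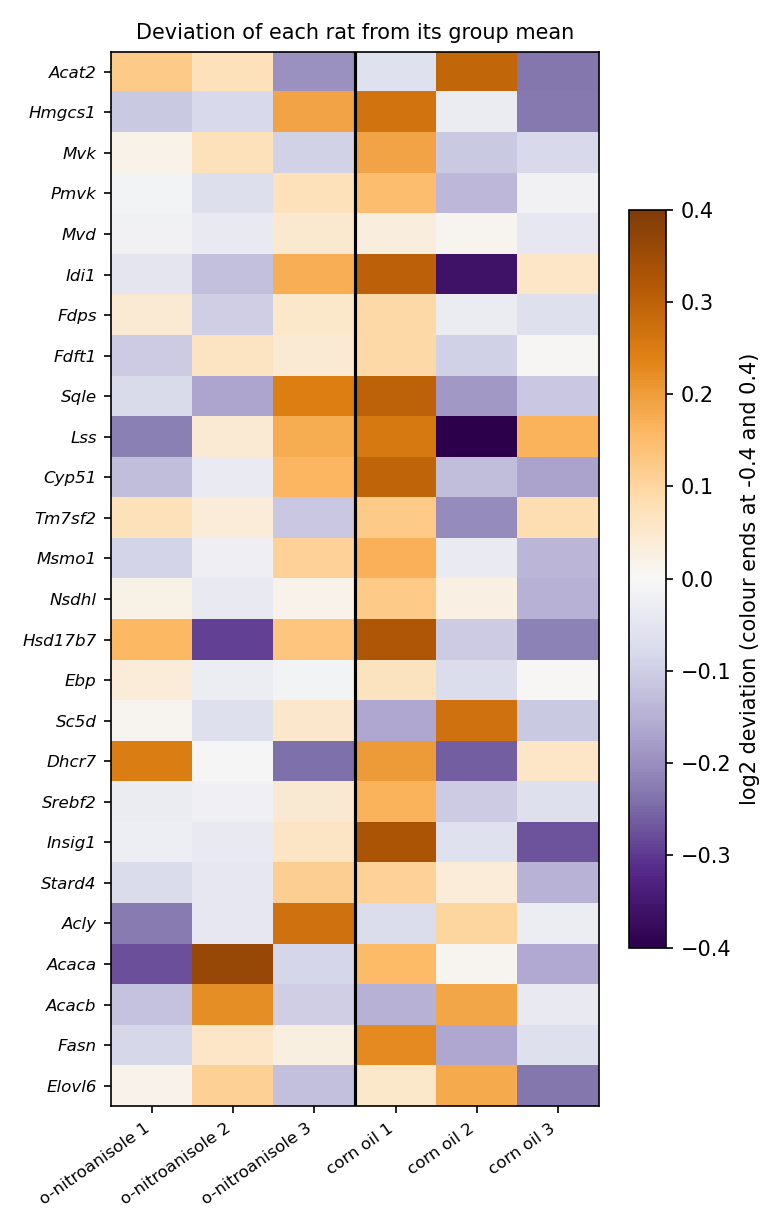
Log2 deviation of each tested gene (rows) in each rat (columns, o-nitroanisole left of corn oil) from its group mean, orange above and purple below it. The corn oil 1 column is orange for nearly all sterol enzymes and regulators, and of the 5 fatty acid enzymes at the bottom it is the highest corn oil column for Acaca and Fasn.

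Around these pathways, genes that process SREBP had a median difference of -0.00 over 8 tested. Scap, the sterol sensor and escort of SREBP, had 5.1, 5.26 and 5.41 in o-nitroanisole, against 3.71, 4.67 and 3.87 in corn oil. The groups did not overlap, with a difference of 0.37 ± 0.10 (adjusted p = 0.159). Scap was the only 1 of the 8 at an unadjusted p under 0.05, or 12.5%, below the 18.9% of all features. Rnf139 and Erlin1, which take part in sterol-regulated protein degradation in the endoplasmic reticulum, differed by -0.15 ± 0.07 and -0.18 ± 0.12.

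Other proteins of sterol synthesis included 9 tested genes, with 7 above 0 and 2 below. Por and Cyb5b had an unadjusted p under 0.05, or 22.2% of the list, against 18.9% of all features. Por, the reductase that passes electrons to Cyp51, Sqle and microsomal cytochromes P450 in general, had 12.1, 11.7 and 12.4 in o-nitroanisole, against 7.96, 7.53 and 6.72 in corn oil. The groups stood far apart, with a difference of 0.71 ± 0.08 or a fold of 1.63 (adjusted p = 0.0789). It passed the threshold with trend and robust moderation (adjusted p = 0.0248) and with normexp correction (adjusted p = 0.0340), within a range of 0.0248 to 0.259 over its alternatives. Cyb5b, a cytochrome b5 of the mitochondrial outer membrane, differed by 0.47 ± 0.10 (adjusted p = 0.123), with 0.27 from its second probe. Pgrmc1, a heme-binding partner of P450 enzymes, differed by 0.15 ± 0.07.

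Among 27 other tested genes of fatty acid and lipid synthesis, 6 were higher and 2 lower at an unadjusted p under 0.05, or 29.6% against 18.9% of all features, and none passed the adjusted threshold. Slc25a1, which exports the citrate that Acly splits, differed by 0.23 ± 0.06 and Acsl1, which activates long-chain fatty acids, by 0.31 ± 0.09, in both cases without overlap of the groups. The probes of Acsl1 ranged from -0.01 to 0.31. Acss2, which makes acetyl-CoA from acetate in the cytosol, had 12.6, 9 and 9.05 in o-nitroanisole, against 18, 12.6 and 18.2 in corn oil. Corn oil replicate 2 met the highest o-nitroanisole rat, and the difference was -0.67 ± 0.20, a fold of 0.629 (adjusted p = 0.182), with -0.59 from its second probe.

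Of 17 tested genes of sterol uptake, efflux and LXR, the oxysterol receptor, 14 were above 0 and 5 were higher at an unadjusted p under 0.05, with 0 lower, or 29.4% against 18.9% of all features (11.8% higher). Scarb1, the HDL receptor, had 0.92, 0.912 and 1.08 in o-nitroanisole, against 0.668, 0.749 and 0.594 in corn oil. The groups did not overlap and the difference was 0.54 ± 0.12, a fold of 1.45 (adjusted p = 0.127), with probes from 0.49 to 0.78. Nceh1, a cholesteryl ester hydrolase, differed by 0.49 ± 0.14 with 0.13 from its second probe, and Lpcat3, a phospholipid acyltransferase under LXR control, by 0.29 ± 0.07.

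In the list of oxysterol and sterol catabolism, 1 of 6 tested genes had an unadjusted p under 0.05, or 16.7% against 18.9% of all features. This was Cyp27a1, the sterol 27-hydroxylase, with 0.428, 0.46 and 0.483 in o-nitroanisole, against 0.289, 0.296 and 0.324 in corn oil. The groups stood apart, a difference of 0.59 ± 0.08 or a fold of 1.51 (adjusted p = 0.0876), and it passed with trend and robust moderation (adjusted p = 0.0369) and with normexp correction (adjusted p = 0.0476), within a range of 0.0369 to 0.266 over its alternatives. Cyp7b1, the oxysterol 7-hydroxylase, differed by -0.42 ± 0.18 with no overlap of the groups (adjusted p = 0.298), and Hsd3b7, which acts next, by 0.19 ± 0.11.

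**Figure D5:**
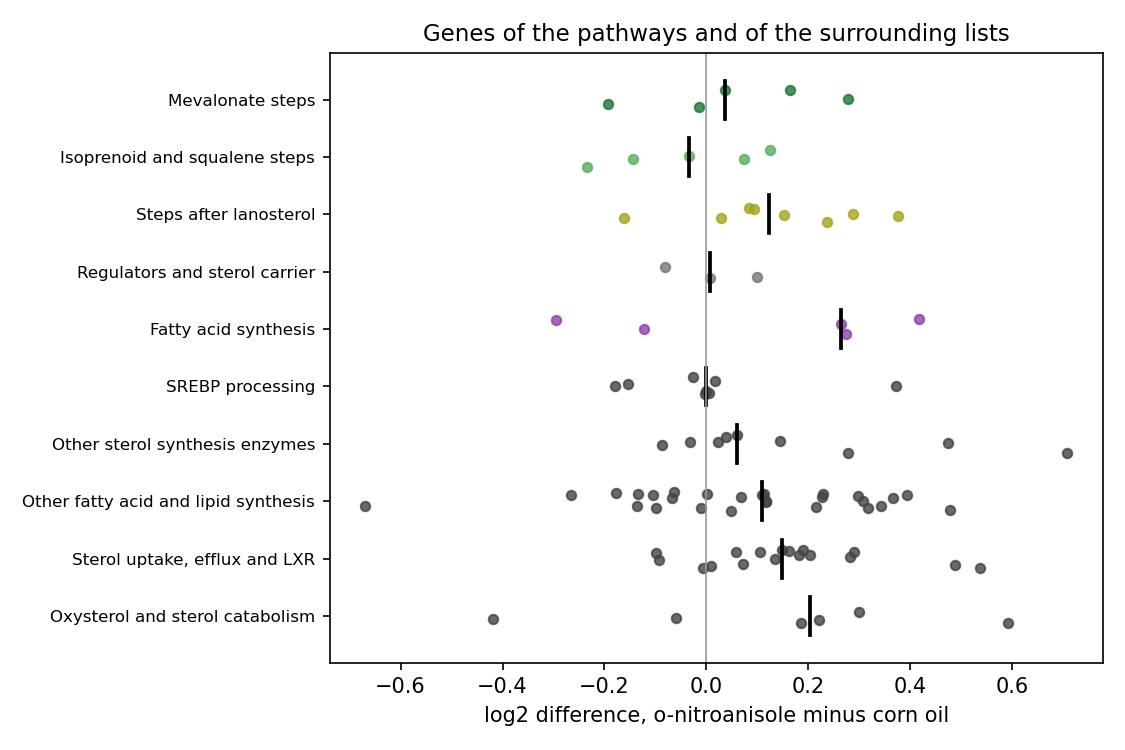
Log2 difference of each tested gene, o-nitroanisole minus corn oil (x axis), by list, with black bars at the medians and vertical scatter only to separate points. The medians run from -0.03 to 0.26, and the points farthest from 0 are Por at 0.71 and Acss2 at -0.67.

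Markers of other cells were read beside these results. Of the red blood cell markers 6 of 6 tested were higher without overlap (17.6% of all features), with a summed relative signal of 262 to 313 in o-nitroanisole and 168 to 194 in corn oil, and Ahsp, which holds alpha globin, at 1.98 ± 0.36. Collecting duct markers were higher in 6 of 9 at an unadjusted p under 0.05 (11.8% of all features), summing to 212 to 234 in o-nitroanisole and 176 to 192 in corn oil, with Slc4a9, a transporter of intercalated cells, at 0.69 ± 0.10. The part of either in the differences above was not tested. Markers of the adrenal cortex, where sterol genes are strongly used, were low: Star, Cyp11b1, Cyp11b2, Mc2r and Nr5a1 were too dim to test, and Cyp21a1 differed by -0.69 ± 0.16. The summed signal of the 3 tested markers was 0.32 to 0.389 in o-nitroanisole and 0.412 to 0.638 in corn oil, without overlap. The part of adrenal cortex in the differences above was not tested. For adipocytes, where fatty acid synthesis is high, Lep was too dim to test and the summed signal of 6 tested markers overlapped, 1.97 to 2.44 in o-nitroanisole and 1.98 to 3.02 in corn oil. Retn, an adipocyte hormone, was well above background on all 3 o-nitroanisole arrays and on no corn oil array. It was therefore tested on the brightness of the o-nitroanisole arrays alone. The bound computed from the group means was 2.75-fold, but the groups overlapped (adjusted p = 0.392). The limma interval for the fold ran from 0.6 to 25.8, so no minimum fold is established. That bound rests on 1 rat: Retn had 0.0156, 0.022 and 0.255 in o-nitroanisole, against 0.017, 0.00737 and 0.0114 in corn oil, and the fitted difference of 1.98 was 0.27 without o-nitroanisole replicate 3. For hepatocytes the sums also overlapped, 2.49 to 5.37 in o-nitroanisole and 1.76 to 8.09 in corn oil, and Apoa1 differed by 0.72 ± 0.75.

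The remaining lists served as a view of the cortex, and the member with the largest difference does not stand for its list. Proximal tubule markers lay on both sides, 5 above 0 and 5 below with a median of 0.04, and Gatm, a creatine synthesis enzyme, differed by -0.77 ± 0.20. Markers of the loop of Henle and distal tubule had a median of -0.09. At an unadjusted p under 0.05, 2 of these 5 markers were lower and 0 higher, against 7.12% and 11.8% of all features. They summed to 407 to 433 in o-nitroanisole and 477 to 522 in corn oil, without overlap, and their part in the differences above was not tested. Calb1, calbindin of the distal tubule, lay the other way at 0.64 ± 0.33, with 0.40 to 0.99 when 1 array was left out. Podocyte markers had a median of 0.07, and Podxl differed by 0.39 ± 0.10. Of 6 podocyte markers 1 was higher and 1 lower at an unadjusted p under 0.05, or 33.3%, against 18.9% of all features. Kdr of endothelium differed by 0.17 ± 0.08 in a list with a median of 0.08. Macrophage markers had 6 of 7 below 0 and a median of -0.14. Mrc1 differed by -0.85 ± 0.42, while Cd14, named after its value was seen as the 1 macrophage marker at an unadjusted p under 0.05, was higher, at 0.51. That 1 marker is 14.3% of its list, against 18.9% of all features. With limma's default settings none of the genes named here passed the adjusted threshold, while Por, Cyp27a1 and Slc4a9 passed with trend and robust moderation.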

How the data were processed

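Total RNA of 6 renal cortices was measured on Cy3-labelled Agilent arrays. Per the file headers, each deposited scanner file gives a processed intensity for every spot, background-subtracted and detrended within the array. The submitters' processing notes name Agilent Feature Extraction 10.7. The deposited value table was read as a ratio, the processed intensity over the array's 75th percentile. Of probes well above background on the array, 100% matched the scanner files within 1%, with corn oil columns in another order. Each ratio of table to scanner value was first divided by its median over the probes. The match therefore shows proportion and direction but not a constant factor. The table is not centred.

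The expression value was log2 processed intensity minus the array's 75th percentile. Outlier spots were set to missing and 84 spike-in probes left out. Of 33356 probes with a RefSeq accession 27460 matched a symbol. A probe was tested if all arrays of 1 group or both had it well above background, and a gene was its brightest probe (52 probes for the genes described). Unnamed probes stayed as features. The test was limma 3.58.1 in R 4.3.3 (lmFit, eBayes), adjusted by Benjamini-Hochberg over 32428 features at 0.05, and was checked on simulated data. A fold against a group not above background is a bound: the bright group's mean against, per array, the higher of the lowest signal above background and the probe's own. Tables were made with pandas 2.3.3 and numpy 2.4.6, and plots with matplotlib 3.10.9, in Python 3.11.15.

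The genes, lists and tests were chosen with earlier results of these data known. All 28 genes are named. From each surrounding list the text names the members past the adjusted threshold, otherwise the 3 with the smallest unadjusted p and the 1 with the largest absolute difference. From each marker list it names the 1 with the largest absolute difference and defining markers not well above background. Normexp (offset 50) ran on the median signal, since no mean signal was read. Slide as a block could not be fitted, as no slide held both groups. With 3 arrays per group, the number of arrays limits the precision. Of 12 other settings chosen, all but the slide block were run, and more were added later.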

Additional observations from a re-analysis of the deposited data

How the results depend on the processing

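None of the 26 tested genes passed an adjusted p of 0.05 under the alternatives run, whereas Por and Cyp27a1 of the surrounding lists did with normexp correction and with trend and robust moderation. The count over all features was 0 by default, 115 with normexp correction and 522 with trend and robust moderation. Leaving out 1 array gave 0 to 4 features, or 0 to 8 with the features tested on all 6 arrays kept, a form added after seeing the data. By the looser rules, 4 of the 26 genes had an unadjusted p under 0.05 (18.9% of all features) and 5 did not overlap (27.2% of all features). The first count was 2 without a filter on dim probes and 2 with the replicate block. Without 1 array it was 0 to 7, against 14.6% of all features for the 0 and 17.9% for the 7. The second count was 6 to 12 without 1 array, against 35.8% of all features for the 12. No share of all features is given for the 2 counts of 2 or for the 6, so these cannot be set against a background. The cause of these shifts was not tested. These recounts, and each further probe by itself, were added after seeing the data. The deposited value table, outlier spots kept, and only probes well above background on all 6 arrays gave the default counts, 0 features passing, 4 genes and 5 genes. Deviations of same-numbered arrays correlated at 0.0911, 0.0584 and 0.0257, and 5 of 6 arrays correlated best with their own number. As the numbers of the corn oil rats are not settled, these values cannot decide whether replicate numbers pair the rats. With the replicate block 0 features passed.

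Differences near 0 changed sign. With normexp correction Hmgcs1 was at -0.15, Mvk 0.10, Sqle 0.01 and Msmo1 -0.00, with quantile normalization Hmgcs1 -0.02, Mvk 0.00, Msmo1 -0.06 and Srebf2 -0.03, with median scaling Mvk 0.00 and with the mean of all probes Hmgcs1 -0.10. Single probes gave -0.23 and -0.09 for Hmgcs1, -0.07 for Cyp51, 0.02 for Stard4 and 0.08 for Acaca. Without 1 array the range was -0.08 to 0.17 for Hmgcs1, -0.07 to 0.08 for Mvk, -0.16 to 0.11 for Sqle, -0.04 to 0.11 for Msmo1, -0.05 to 0.09 for Srebf2, -0.33 to 0.01 for Idi1, -0.27 to 0.00 for Hsd17b7, -0.04 to 0.26 for Insig1 and -0.30 to 0.02 for Acaca. The medians were 0.05 to 0.10 for sterol and 0.17 to 0.28 for fatty acid enzymes over the alternatives with all arrays. Slc4a9 passed with trend and robust moderation (adjusted p = 0.0321, range 0.0321 to 0.271 over its alternatives). Over 51 named genes and all alternatives, 1093 single values kept their direction and side of the threshold and 47 changed sign. Dim signal limits Scd, which was not tested, and the further Srebf2 probe.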
